A study of Mus musculus with 2 samples.

Results

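Ly6a, Ly6d and Ly6e are 3 of the 22253 genes in a single-cell RNA library made from cultures of mouse distal small-intestinal organoids, and they are described here across cell types and between genotypes. They were picked by name after earlier results of the same data were known, in which Ly6d and Ly6e stood near the top of the genotype comparison, so their values in that comparison are given as a description. The groups were 3 Etv1 mutant cultures and 2 control cultures, which the submitters call biological replicates. Every culture carried the reporters Neurog3-RFP and Gcg-Venus, which mark cells of the enteroendocrine lineage and cells that express the proglucagon gene. The labels do not say what kind of Etv1 mutation the cultures carry or which cells the sort kept. Cells of each culture were tagged with a hashtag, an antibody that carries a barcode, then pooled and sequenced as 1 library, so all 5 cultures share its preparation and its free RNA.

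Proteins of the Ly6/uPAR family are small, rich in disulfide bonds and, in most members, held at the outer face of the cell membrane by a glycosylphosphatidylinositol (GPI) anchor. Ly6a, also called Sca-1, marks blood stem cells of the mouse and is known from regenerating and fetal-like gut epithelium. Ly6d is known as a marker of early B-lineage commitment and of squamous epithelia, and Ly6e is an interferon-inducible gene whose product restricts the entry of coronaviruses and is the receptor of the placental protein syncytin-A. The 3 genes lie on chromosome 15 of the mouse build mm10, in 1 block of 236 kb that holds 7 listed genes of the family, these included. Ly6d spans chr15:74762056-74763620 on the minus strand, Ly6e spans chr15:74955051-74959905 on the plus strand and Ly6a spans chr15:74994877-74998031 on the minus strand.

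After filtering, 1432 cells were assigned to 1 culture, 197 to 282 per mutant culture and 323 and 349 in the control cultures, with 4193197 to 7254380 summed counts per culture and median totals of 20842 to 24126 counts per cell. Control culture 2 stood apart in the hashtag data: a second calling method (MULTIseqDemux) kept 61.6% of its cells, against 80.2% to 86.1% in each of the other cultures. Etv1 itself had 3.21, 3.06 and 3.10 CPM (counts divided by the total counts of the culture and multiplied by 1000000) in mutant cultures 1 to 3, against 6.20 and 6.28 CPM in control cultures 1 and 2 (20, 20 and 13 counts against 45 and 44). In the epithelium the labels name, mesenchymal, immune and endothelial cells should be missing: 5 of 6 mesenchymal markers, with Col1a1 and Pdgfra among them, were at 0 in all cells. Of the immune markers 5 of 6 had counts, 42.6 in all, with the T cell gene Cd3e at 0, and of the endothelial markers 4 of 6 had counts, 206 in all, with Cdh5 and Emcn at 0. The mesenchymal sum was that of Vim alone, with 74 counts, and came to 0.306 to 1.44 CPM in mutant and 3.29 to 5.24 CPM in control cultures. The summed markers of immune cells came to 0.946 to 2.64 CPM in mutant and 1.07 to 1.49 CPM in control cultures. Those of endothelial cells came to 4.28 to 7.15 CPM in mutant and 8.13 to 8.14 CPM in control cultures, and the part of these lists in the results below was not tested. Cells fell into 11 clusters, clustered without any gene of the Ly6/uPAR family, of which 7 could be named from marker genes. The names are rebuilt from these data, and a cluster is called by its name and its leading gene.

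Across all cells, Ly6e and Ly6d were higher in every mutant culture than in both control cultures, and Ly6a was not. In edgeR's quasi-likelihood test 0 of the 3 genes passed an adjusted p of 0.05 for mutant against control, where 0.00904% of the 11061 genes tested passed. Every mutant culture lay above both control cultures in 2 of the 3 genes, where 9.15% of all genes tested did so. Nothing is read from either count, because the genes were chosen with this contrast known.

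**Figure D1:**
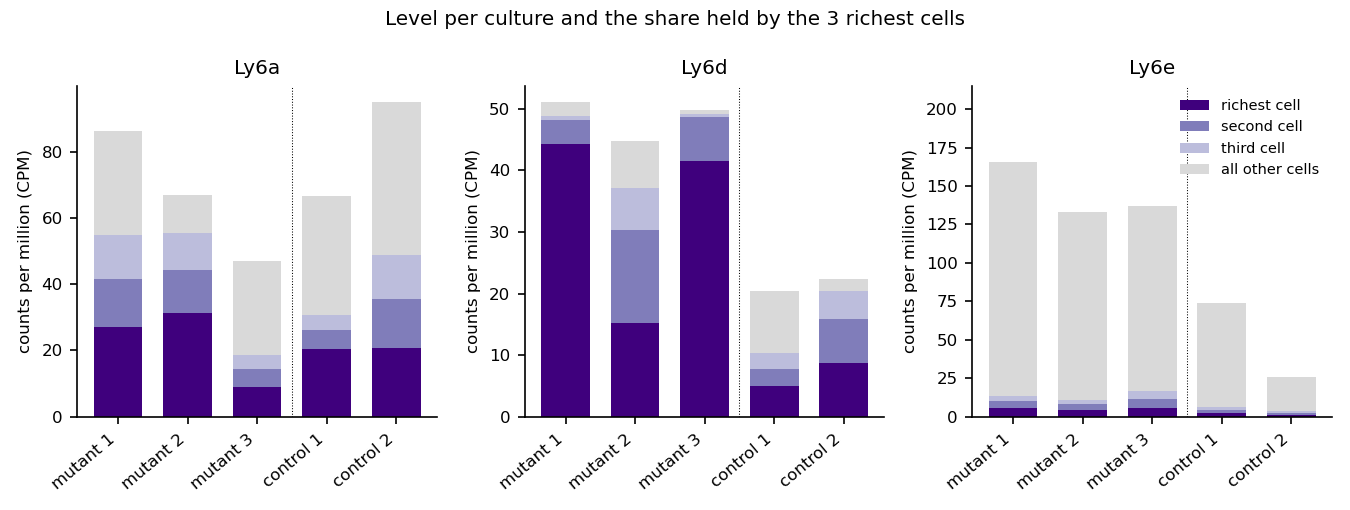
Level of Ly6a, Ly6d and Ly6e in each culture, in CPM over all assigned cells, with mutant cultures to the left of control cultures. The colours split each bar into the counts of its 3 richest cells and of all other cells: the richest cell held 86.5% of the Ly6d counts of mutant culture 1 and 3.58% of its Ly6e counts.

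Ly6e was the broadest of the 3 genes, with at least 1 count in 777 of the 1432 cells. It had 166, 133 and 137 CPM in mutant cultures 1 to 3, against 74.0 and 25.7 CPM in control cultures 1 and 2. The mutant cultures lay close together and the control cultures did not: control culture 1 was 2.88 times control culture 2, and the lowest mutant culture was 1.80 times the higher control culture. The means were 145 ± 17.8 CPM in mutant cultures and 49.9 ± 34.2 CPM in control cultures (SD, n = 3 and 2), a log2 fold change of 1.53 (SE 0.39). The log2 fold change was 0.94 when control culture 2 was left out and 2.51 when control culture 1 was left out.

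No single cell carried the Ly6e difference. The richest cell held between 3.33% and 5% of the Ly6e counts of its culture, and leaving that cell out of each culture gave 161, 130 and 132 CPM in mutant against 71.9 and 24.7 CPM in control cultures. The share of cells with a count was 69.9%, 67.3% and 62.4% in mutant cultures and 57.0% and 24.1% in control cultures. For a share at one depth, the 1288 cells with at least 3832 counts were thinned to that number. Cells with fewer counts were left out of this and every later thinned value. That kept 243 of 282, 249 of 281 and 176 of 197 cells in mutant and 302 of 323 and 318 of 349 in control cultures. The thinned shares were 37.9%, 41.0% and 29.0% in mutant and 24.2% and 10.7% in control cultures. The thinned shares of mutant culture 3 (exact 95% interval 22.4% to 36.3%) and control culture 1 (19.5% to 29.4%) overlap in their intervals, which cover counting error only. In the cells that both hashtag methods placed in the same culture, Ly6e had 154, 126 and 132 CPM in mutant and 71.5 and 22.4 CPM in control cultures. Control culture 2 was lowest among these cells too. Whether its hashtag calls and its Ly6e level are linked was not tested.

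By cell type, Ly6e was highest in goblet/Paneth-like cells (the Spink4-led cluster, cells that make mucus and antimicrobial peptides) and lowest in the enterocyte-like cluster led by Apoa1, an apolipoprotein gene of mature absorptive cells. Both held in 5 of 5 cultures. The median over cultures was 342 CPM in goblet/Paneth-like cells, 207 CPM in enteroendocrine-like cells (the hormone-producing cells, led by Chgb) and 164 CPM in cycling-like cells. The median was 156 CPM in the enterocyte-like cluster led by Sprr1a and 102 CPM in stem-like cells. It was 30.9 CPM in the enterocyte-like cluster led by Fabp6, the ileal bile acid binding protein, and 5.94 CPM in the one led by Apoa1. In this order the ranges of neighbours over cultures overlapped at every step but the last, from Fabp6-led to Apoa1-led cells. The 4 unnamed clusters lay between 118 and 135 CPM.

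The thinned share of cells with Ly6e followed the same extremes, at 50% of goblet/Paneth-like cells (95% interval 38.1% to 61.9%) and 2.25% of Apoa1-led cells (0.273% to 7.88%). Without thinning the shares were 74.1% and 11.3%, at median totals of 17818 and 26698 counts per cell. The Apoa1-led cells were thus the more deeply sequenced of the pair and the ones with the fewest Ly6e counts. The interval of the Fabp6-led cells, at 8.25% (3.63% to 15.6%), overlaps that of the Apoa1-led cells, although their CPM ranges were apart. What free RNA contributes to these shares was not measured.

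The order of genotypes held in nearly every cluster. In 10 of the 11 clusters all 3 mutant cultures had more Ly6e than both control cultures, where the share of genes for which this was so ran from 7.64% to 12.2% per cluster. That share was 11.2% in goblet/Paneth-like, 7.64% in enteroendocrine-like, 9.75% in cycling-like, 12.2% in stem-like, 8.62% in Sprr1a-led, 8.77% in Fabp6-led and 9.72% in Apoa1-led cells. In the unnamed clusters it was 11.3% (Atf5-led), 11.2% (Ifitm3-led), 10.1% (mt-Nd1-led) and 12.1% (Gm10358-led). The clusters share their cultures and are not 10 separate observations. In goblet/Paneth-like cells Ly6e had 474, 413 and 342 CPM in mutant cultures 1 to 3, against 140 and 54.4 CPM in control cultures 1 and 2. In enteroendocrine-like cells it had 315, 269 and 207 CPM in mutant against 64.9 and 43.1 CPM in control cultures. These come from 32, 27 and 21 counts in 7, 10 and 10 cells of the mutant cultures and 15 and 8 counts in 18 cells each of the control cultures. In stem-like cells the values were 150, 156 and 102 CPM in mutant and 81.7 and 15.4 CPM in control cultures. In the Sprr1a-led cluster Ly6e had 223, 361 and 156 CPM in mutant and 25.8 and 41.1 CPM in control cultures. These come from 72, 60 and 16 counts in mutant and 6 and 10 counts in control cultures. In the Apoa1-led cluster, the exception, mutant cultures had 7.56, 3.64 and 0 CPM and control cultures 8.89 and 5.94 CPM, all from 13 counts. Control culture 1 was above control culture 2 in 10 of the 11 clusters. That is a looser criterion than all 3 mutant cultures above both control cultures, and its share over all genes was not measured.

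**Figure D2:**
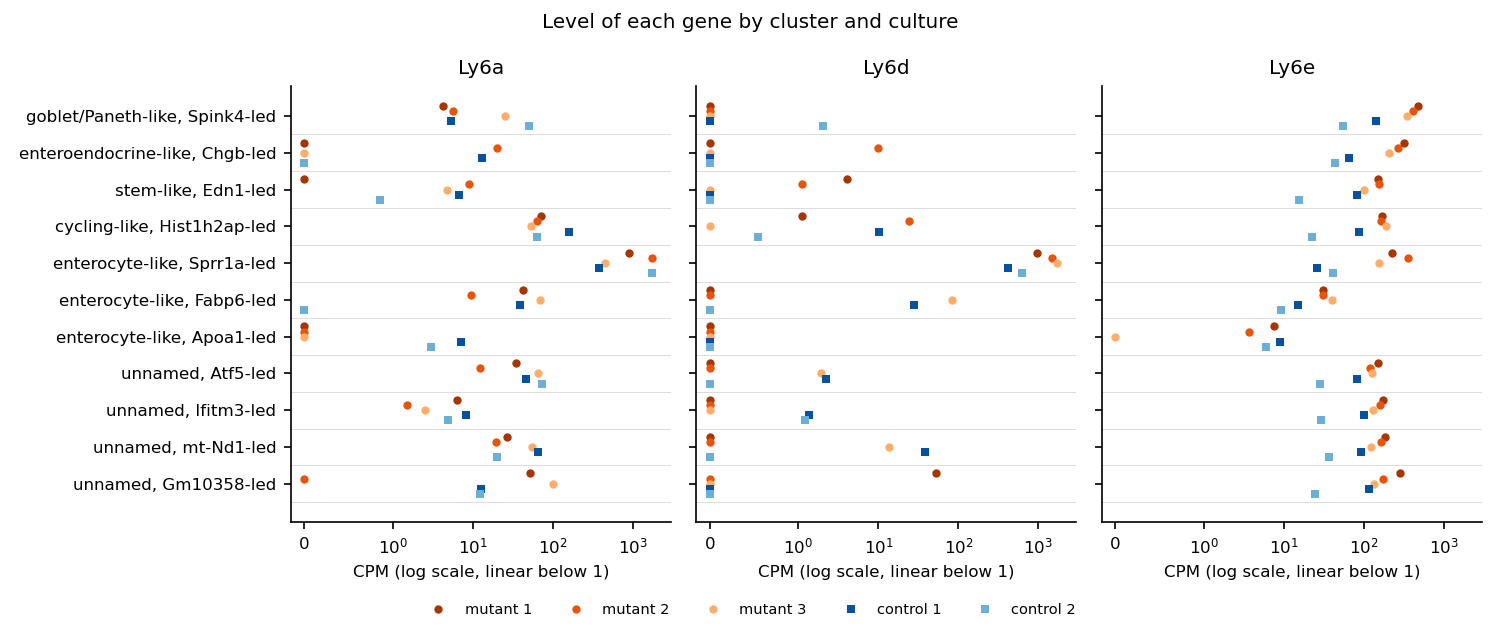
Level of each gene in each cluster, in CPM on a log axis that is linear below 1, with 1 point per culture (circles for mutant, squares for control, mutant above control within each row). Ly6e spread over all clusters with mutant above control in 10 of 11, Ly6d had a median of 1.12 CPM or 0 in every cluster but the Sprr1a-led one, and the Ly6a points of the 2 genotypes overlapped in 10 of 11 clusters.

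Tested class by class, Ly6e passed the filter on low counts in all 4 classes, and its log2 fold change was 2.23 (SE 0.36) in enteroendocrine-like, 1.91 (SE 0.32) in enterocyte-like, 1.70 (SE 0.32) in cycling-like and 1.46 (SE 0.32) in stem-like cells. None of these passed the adjusted threshold, which 0.0525%, 0%, 0.0225% and 0.0539% of the genes tested in those classes did, in the same order. In each of the 4 classes every mutant culture lay above both control cultures, as 9.46%, 8.1%, 9.89% and 13.6% of the genes tested there did. The enterocyte-like value joins 3 clusters, and without the Sprr1a-led one it was 0.93. The values and calls turned on single cultures: in stem-like cells the log2 fold change was 0.66 without control culture 2 and 3.08 without control culture 1. Without mutant culture 1 Ly6e passed there (edgeR adjusted p = 0.00093), in a fit that called 14 genes higher and 24 lower. In cycling-like cells the log2 fold change was 1.01 without control culture 2 and 2.94 without control culture 1. In enteroendocrine-like cells it was 2.00 without control culture 2 and 2.54 without control culture 1. With no filter on low counts Ly6e passed in all 4 classes, but the calls over all genes rose too. Those fits called 14 genes higher and 26 lower in enteroendocrine-like and 28 and 12 in enterocyte-like cells. They called 10 and 23 in cycling-like and 20 and 9 in stem-like cells. With the MULTIseqDemux calls Ly6e passed in stem-like cells (edgeR adjusted p = 0.0320), where 2 genes were called higher and 0 lower. Nothing is read from these passes, because the genes were chosen with this contrast known. A term for the difference between classes, fitted with the culture as a block, did not pass for any class set against stem-like cells, where 0.0158%, 0% and 0.0707% of genes passed: the difference in change was 0.78 (SE 0.47, edgeR adjusted p = 0.999) for enteroendocrine-like, 0.42 (SE 0.48, adjusted p = 1) for enterocyte-like and 0.20 (SE 0.26, adjusted p = 0.973) for cycling-like cells. When each culture was given the same cluster makeup, Ly6e had 177, 159 and 135 CPM in mutant and 78.4 and 25.6 CPM in control cultures, close to the values over all cells.

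Ly6d had 51.2, 44.8 and 49.8 CPM in mutant cultures 1 to 3, against 20.4 and 22.4 CPM in control cultures 1 and 2. Here both groups were tight and apart, with means of 48.6 ± 3.36 CPM in mutant and 21.4 ± 1.43 CPM in control cultures (SD, n = 3 and 2), and a log2 fold change of 1.17 (SE 0.11). The counts, however, came from very few cells: 51 of the 1432 cells had a Ly6d count, and 25 had 3 or more. In mutant culture 1 the richest cell held 276 of 319 counts. In mutant culture 2 a pair of cells held 99 each of 293 counts, and in mutant culture 3 the richest cell held 174 of 209. In control culture 1 the richest cell held 36 of 148 counts, and in control culture 2 it held 61 of 157.

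Without the richest Ly6d cell of each culture, Ly6d had 6.93, 29.9 and 8.43 CPM in mutant and 15.5 and 13.8 CPM in control cultures. The groups then overlapped, and the log2 fold change was 0.08. The number of cells did not separate the genotypes: 4.26%, 3.20% and 3.05% of the cells of the mutant cultures had a count, and 4.95% and 2.29% of those of the control cultures. Thinned to one depth, the shares were 2.06%, 2.41% and 1.70% in mutant and 2.32% and 1.89% in control cultures. In the cells that both hashtag methods placed in the same culture, Ly6d had 63.4, 34.9 and 9.64 CPM in mutant and 18.6 and 21.9 CPM in control cultures. Mutant culture 3 fell below both control cultures there because its richest cell was not among those cells.

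**Figure D3:**
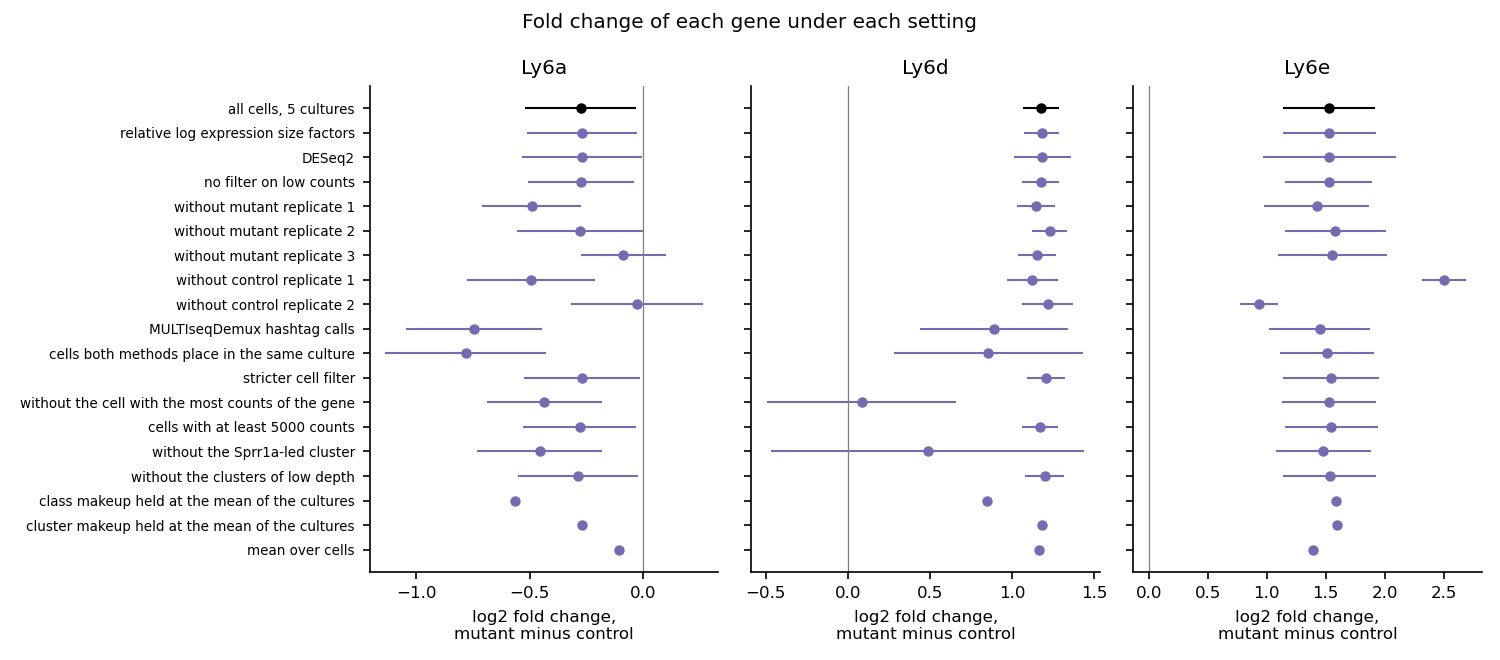
Log2 fold change, mutant minus control, of each gene over all cells and under each alternative, with bars of 1 SE where a model was fitted. Ly6d lay at 1.17 over all cells and at 0.08 without the richest cell of each culture, and Ly6e lay above 0 under every alternative, between 0.94 and 2.51.

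Those cells belonged mostly to 1 cluster. The Sprr1a-led enterocyte-like cluster (Sprr1a encodes a cornified-envelope protein that injured epithelium also makes) had 36 cells, 2.51% of all cells and 3.42% of all counts, and held 87.7% of the Ly6d counts. Its 36 cells were 11, 6 and 3 in mutant cultures 1 to 3 and 7 and 9 in control cultures 1 and 2. It met the naming rule with 5 of 12 enterocyte markers, but none was among its 10 leading genes, which were Sprr1a, Ly6d, F3, Anxa1, Pmp22, Ly6a, Lgals3, Il1rn, Ly6m and Hmox1. Of 19 genes of the list of injury and fetal-like epithelial genes with at least 10 counts, 16 had a higher CPM in this cluster than in all other cells. Its Ly6a and Ly6d level, although these genes were kept out of the clustering, is a description and not a test. No cluster was led by Sprr1a at Leiden resolution 0.5 or with the Ly6-family genes among the variable genes. The values of this cluster therefore hold for the clustering used here.

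Within the Sprr1a-led cluster Ly6d had 968, 1490 and 1707 CPM in mutant cultures and 422 and 634 CPM in control cultures. All 3 mutant cultures lay above both control cultures, as 8.62% of the genes measured in this cluster did. The richest cell held 276, 99 and 174 of the Ly6d counts of this cluster in mutant cultures, and 36 and 61 in control cultures. The median cell of the cluster held 2, 24.5 and 1 Ly6d counts in mutant and 7 and 2 in control cultures, and these overlap. In the other clusters Ly6d was low: the median over cultures was 1.12 CPM in cycling-like cells and 0 in each of the other 9 clusters. In the Apoa1-led cluster 0 of 97 cells had a count, which allows a share of cells with a detected count of up to 3.09% and sets no limit on cells that express the gene. Of the 4 classes tested, Ly6d and Ly6a passed the filter on low counts only in cycling-like and enterocyte-like cells. In enterocyte-like cells, the Sprr1a-led cluster included, Ly6d had 290, 136 and 298 CPM in mutant and 79.7 and 170 CPM in control cultures, which overlap. The log2 fold change there was 0.96 (SE 0.38) and did not pass the adjusted threshold. With no filter on low counts it was 0.95 and passed (edgeR adjusted p = 0.0037), in a fit that called 28 genes higher and 12 lower. Without the richest cell of each culture it was -0.47. A few rich cells stood outside the Sprr1a-led cluster, among them a cycling-like cell of mutant culture 2 with 42 counts and a Fabp6-led cell with 30 counts.

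Ly6a had 86.4, 66.8 and 47.0 CPM in mutant cultures 1 to 3, against 66.7 and 95.1 CPM in control cultures 1 and 2. The groups overlapped, with means of 66.7 ± 19.7 CPM in mutant and 80.9 ± 20.1 CPM in control cultures (SD, n = 3 and 2) and a log2 fold change of -0.27 (SE 0.24). Thinned to one depth, 7.41%, 6.02% and 9.66% of the cells of the mutant cultures had a count, against 9.27% and 5.97% of those of the control cultures. Here too 1 cell mattered: the richest held 168 of 539, 204 of 437 and 37 of 197 counts in mutant cultures, and 149 of 484 and 146 of 666 in control cultures.

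Ly6a was found in more cell types than Ly6d. The Sprr1a-led cluster held 49.1% of its counts, cycling-like cells 31.2% and the unnamed cluster led by Atf5, a stress-response transcription factor gene, 11.1%. In the Sprr1a-led cluster it had 900, 1749 and 449 CPM in mutant and 375 and 1753 CPM in control cultures, a range in control cultures that takes in the whole range of mutant cultures. In the Apoa1-led cluster, the one cluster without overlap, it was at 0 in all 3 mutant cultures and had 7.11 and 2.97 CPM in control cultures, from 5 counts in all. The median over cultures was 900 CPM in the Sprr1a-led cluster, 62.8 CPM in cycling-like cells and 45.9 CPM in Atf5-led cells. The step from the first to the second of these was the only one in the order at which the ranges of neighbours over cultures were apart. In cycling-like cells Ly6a had 71.3, 62.8 and 53.5 CPM in mutant and 159 and 62.6 CPM in control cultures, and the log2 fold change was -0.77 (SE 0.28). Without control culture 1 that value was 0.04, and without control culture 2 it was -1.30, each from a fit that leaves 1 control culture. With no filter on low counts it was -0.77 and passed (edgeR adjusted p = 0.00015), in a fit that called 10 genes higher and 23 lower.

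In stem-like cells Ly6a had a median of 4.73 CPM. Their thinned share of cells with a count was 0.905% (0.110% to 3.23%), against 2.25% (0.273% to 7.88%) in the Apoa1-led cells, so it was not above the share in those cells, and what free RNA contributes to either was not measured. Without thinning the shares were 6.70% and 4.12%, at median totals of 19297 and 26698 counts per cell. In cycling-like cells the thinned share was 8.4% (5.27% to 12.6%) and in Atf5-led cells 10.6% (6.65% to 15.7%). Of the 93 cells with 3 or more Ly6a counts, 36 were cycling-like, 24 Atf5-led and 19 Sprr1a-led.

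Ly6a and Ly6d were often in the same cells. Of the 51 cells with Ly6d, 31 also had Ly6a (60.8%), which is 12.1% of the 257 cells with Ly6a. Within cultures the correlation over cells of log2 counts per 10000 averaged 0.51 (range 0.31 to 0.71), and 0.50 after thinning. The cells share a library and a culture, and the value rests on few cells: 13 had 10 or more counts of both, 9 of them in the Sprr1a-led cluster. The richest Ly6d cell of each mutant culture held 168, 204 and 37 Ly6a counts, and that of each control culture 12 and 73. Inside the Sprr1a-led cluster 17 of 36 cells had both genes and 5 had neither. Ly6e level did not go with that of Ly6d (mean correlation 0.04, range -0.02 to 0.13) and only weakly with that of Ly6a (0.17, and 0.10 after thinning). By presence of a count, 32 of the 51 Ly6d cells (62.7%) also had Ly6e. Of all 1432 cells, 777 had Ly6e and 257 had Ly6a.

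**Figure D4:**
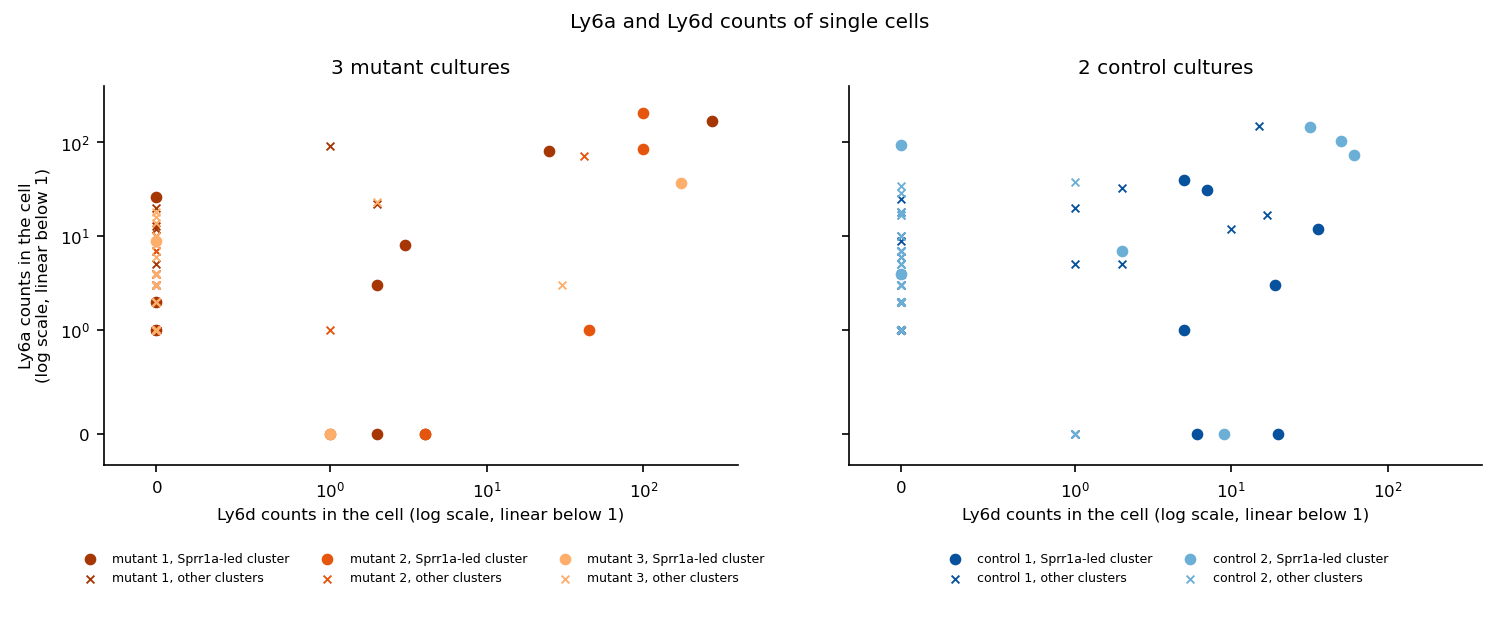
Ly6a counts against Ly6d counts of every cell with at least 1 count of either gene, on log axes that are linear below 1, for the 3 mutant cultures (left) and the 2 control cultures (right). Filled circles are cells of the Sprr1a-led cluster and crosses cells of all others: cells rich in both genes are mostly circles, and the highest Ly6d counts, 276 and 174, are in mutant cultures.

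The genes most like each of the 3, by mean within-culture correlation over 9043 genes found in at least 10% of cells, differed in the same way. For Ly6d they were Anxa1 (0.63), Anxa3 (0.56), Ly6a (0.51), F3, the coagulation initiator tissue factor (0.46), and Serpinb5 (0.43). For Ly6a they were Anxa3 (0.53), Anxa1 (0.47) and the calcium-binding protein genes S100a6 (0.39), S100a11 (0.36) and S100a14 (0.36). Anxa1 and Anxa3, annexins that bind membrane phospholipids, stood first or second for both. For Ly6e the best values were low, with Fxyd3, a regulator of the sodium pump, at 0.30, the keratin gene Krt18 at 0.29 and Hopx at 0.28, and they were 0.15, 0.17 and 0.13 after thinning.

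The other genes of the family were mostly silent or rare. Of 42 listed, 40 were in the library, 16 of those had at least 10 counts in the assigned cells, 8 had fewer and 16 had none. Lypd8, a gut protein that keeps flagellated bacteria from the epithelium, was by far the most widespread, with a count in 1204 cells. It had 402, 451 and 405 CPM in mutant and 428 and 338 CPM in control cultures, which overlap. Ly6c1, Ly6g, Ly6m, Ly6g6c, Lynx1, Psca, Plaur, Gml and Gml2 had more of their counts in the Sprr1a-led cluster than in any other. Ly6g, Ly6m, Ly6g6c, Psca, Gml and Gml2 reached 10 counts only through that cluster, with 1 to 8 counts elsewhere, so no share of the family is read from this. Several rest on 1 cell, which held 36 of the 44 counts of Psca (prostate stem cell antigen) and 70 of the 169 of Ly6m. Ly6m, with 97.6% of its counts in that cluster, had 13.8, 7.64 and 0.238 CPM in mutant and 3.31 and 1.14 CPM in control cultures. Plaur, the urokinase receptor that gives the family part of its name, had 17.2, 16.2 and 12.2 CPM in mutant and 14.1 and 19.9 CPM in control cultures. Ly6g2 and Lypd8 had the most counts in Apoa1-led cells, and Ly6g6f had 87.5% of its 16 counts in enteroendocrine-like cells. Ly6c1 had 0.321, 0.306 and 0.954 CPM in mutant and 2.89 and 1.71 CPM in control cultures, from 41 counts, and it shares reads with its near-identical copy Ly6c2, so the value is uncertain.

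In the gene lists linked to the 3 genes, 0 genes passed the edgeR test in either direction. Over all 11061 genes tested the log2 fold changes had a median of 0.00, with 5646 above and 5415 below zero. Past the threshold were 0 higher and 1 lower (133 higher and 204 lower at an unadjusted p under 0.05, and 2 higher and 4 lower by DESeq2). Genes named below from a list are among those with its smallest p. Every mutant culture lay above both control cultures in 9.15% of all genes tested. Of the other family genes 6 of 42 were tested, 3 above and 3 below zero, with a median of -0.01. Of the interferon response genes, the program Ly6e is known from, 20 of 33 were tested, 11 above and 9 below zero, with a median of 0.12. Ifitm3, a membrane protein that blocks viral fusion, had 454, 358 and 419 CPM in mutant and 495 and 610 CPM in control cultures. Ifi27l2b had 125, 149 and 156 CPM in mutant and 121 and 115 CPM in control cultures. Ifit1bl1 had 3.69, 0.612 and 0.477 CPM in mutant and 2.89 and 7.57 CPM in control cultures, which overlap. Of the injury and fetal-like epithelial genes 16 of 25 were tested, 9 above and 7 below zero, with a median of 0.04. Anxa1 had 48.1, 61.0 and 41.97 CPM in mutant and 59.7 and 85.3 CPM in control cultures, so the gene most like Ly6d was not higher in mutant cultures. Anxa3, the gene most like Ly6a, had 32.4, 29.0 and 18.6 CPM in mutant and 33.4 and 36.3 CPM in control cultures. S100a6, by contrast, had 946, 1189 and 878 CPM in mutant and 782 and 811 CPM in control cultures. Of the genes that build and attach the GPI anchor 30 of 31 were tested, 20 above and 10 below zero, with a median of 0.03; among them Pigw had 7.86, 8.10 and 7.39 CPM in mutant and 6.20 and 5.86 CPM in control cultures. Of the PEA3 factors (the subfamily of Etv1) and feedback genes of ERK signalling 12 of 13 were tested, 7 above and 5 below zero, with a median of 0.03. Spry2, an inhibitor of receptor signalling, had 16.0, 14.7 and 15.02 CPM in mutant and 12.8 and 11.3 CPM in control cultures.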

How the data were processed

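Hashtag-derived tag counts and RNA values were deposited as 2 matrices over the same 3409 barcodes. The deposited hashtag values are raw counts. The deposited RNA values are estimated counts, also called expected counts, per gene and cell: 95.7% of those above 0 are whole, and all of those of Ly6a, Ly6d and Ly6e are. Per the submitters' processing notes, the build was mm10 and the tools were Seurat 4.3.0, Salmon 1.4.0, Cell Ranger 6.1.0 and alevin, with no role stated for any of them. The strand setting of the counting is not stated. The labels tie each hashtag to a genotype.

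The 3 genes, the gene lists and the markers were chosen with earlier results of these data known. Barcodes with at least 500 genes and at most 25% mitochondrial counts were kept (2725) and assigned with HTODemux (Seurat 5.3.0, positive quantile 0.99). Of these, 239 with several hashtags were removed as doublets and 1054 had none. No doublet caller was run, so doublets within a culture may remain. Both methods called 1121 cells, 1120 of them in the same culture. Cells were clustered in scanpy 1.11.5 (2000 variable genes, 30 components, 15 neighbours, Leiden resolution 0.8), and a cluster was named from at least 3 markers with a log2 fold of 0.5 found in 25% of its cells, unless its depth was more than 3-fold below that of its cultures or its leading genes went against the name. CPM are counts summed per culture or per culture and cluster. Counts were rounded and tested with edgeR 4.0.16 (TMM, filterByExpr, Benjamini-Hochberg adjustment over all genes tested) in classes with 20 cells in every culture and in enteroendocrine-like cells. DESeq2 1.42.0 was an alternative. The edgeR code was tested on simulated data. Intervals are exact at 95%. Genes named beside the 3 were the family genes with at least 10 counts, Etv1, up to 3 genes per list with the smallest p, the 5 genes most like each of the 3, and class markers. Positions are from GENCODE. P-values measure the spread between cultures that share 1 library. With 3 against 2 cultures, an exact permutation test over the 10 splits could not reach 0.05, and none was used.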

Additional observations from a re-analysis of the deposited data

How the results depend on the processing

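Over all cells, Ly6a, Ly6d and Ly6e each kept the sign of their log2 fold change (mutant minus control) under all 18 alternatives, between -0.78 and -0.03 for Ly6a, 0.08 and 1.23 for Ly6d, and 0.94 and 2.51 for Ly6e. Ly6d passed an adjusted p of 0.05 with DESeq2 (1.18, adjusted p = 4.1e-08), where 2 genes were called higher and 4 lower. It passed with no filter on low counts (1.17, edgeR adjusted p = 0.0421), where 1 gene was called higher and 1 lower. It also passed without mutant culture 2 (1.23), where 2 genes were called higher and 1 lower. Leaving out 1 culture at a time gave 1.12 to 1.23. With the class makeup held at the mean of the cultures it was 0.84, without the Sprr1a-led cluster 0.48 and with the MULTIseqDemux calls 0.89. Its adjusted p ran from 4.1e-08 to 1 over these alternatives. Ly6e passed in no fit that kept all control cultures. Leaving out 1 culture gave 0.94 to 2.51 for Ly6e, with each end from a fit that leaves 1 control culture. Leaving out 1 culture gave -0.49 to -0.03 for Ly6a.

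Counts of called genes were small and unstable. Over all cells they were 0 higher and 1 lower, against 2 and 4 with DESeq2, 1 higher with no filter, 2 lower with the MULTIseqDemux calls, and 0 to 2 higher and 1 to 5 lower when 1 culture was left out. In cycling-like cells (1 higher, 1 lower) they were 10 and 23 with no filter, 0 and 0 with the MULTIseqDemux calls and with the Ly6-family genes among the variable genes, 2 and 0 in cells both methods placed alike, 2 and 3 with a stricter cell filter, 0 lower with DESeq2 and at Leiden resolution 1.2, and 0 to 1 higher and 0 to 4 lower leaving out 1 culture. In enterocyte-like cells (0 and 0) they were 28 and 12 with no filter, and 0 to 2 higher and 0 to 2 lower leaving out 1 culture. In enteroendocrine-like cells (0 and 1) they were 14 and 26 with no filter, 2 lower with the MULTIseqDemux calls, and 0 to 4 higher and 1 to 8 lower leaving out 1 culture. In stem-like cells (3 and 1) they were 20 and 9 with no filter, 1 and 0 with DESeq2, with the stricter filter and at resolution 1.2, 1 higher at resolution 0.5 and with the Ly6-family genes among the variable genes, 0 lower with the MULTIseqDemux calls and in cells both methods placed alike, and 1 to 14 higher and 0 to 24 lower leaving out 1 culture. Leaving out 1 of the control cultures leaves 1 control culture, so those fits hold no spread between control cultures. The cause of these shifts was not tested.

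Within classes 5 values changed sign. Leaving out 1 culture gave -1.30 to 0.036 for Ly6a in cycling-like cells, -1.34 to 1.17 for Ly6a in enterocyte-like cells and -0.15 to 3.90 for Ly6d in cycling-like cells. The sign changed without control culture 1 in the first and without control culture 2 in the other two. Ly6a in enterocyte-like cells was 0.32 without the Sprr1a-led cluster, and Ly6d there was -0.47 without its richest cells. In barcodes with no hashtag, 3 levels moved by more than 1 SD over cultures: Ly6e was 11.04 CPM in enterocyte-like and 336 CPM in enteroendocrine-like cells, and Ly6a was 8.60 CPM in stem-like cells. In enterocyte-like cells Ly6a was 51.5 CPM there, against 164 CPM (SD 161), and Ly6d 75.4 CPM, against 170 CPM (SD 96.2). A Sprr1a-led cluster was found at Leiden resolution 1.2 (36 cells), with the MULTIseqDemux calls (39 cells) and with the stricter filter (34 cells). None was found at resolution 0.5, with the Ly6-family genes among the variable genes, or in barcodes with no hashtag. Leaving out the Sprr1a-led cluster or the clusters of low depth, and holding the cluster makeup fixed, were chosen after seeing the data. No paired analysis was possible because the labels give mutant and control cultures no shared replicate numbers. Outside the Sprr1a-led cluster most cultures had few or no Ly6d counts per cluster. Median totals per cell there ran from 1344 counts in Gm10358-led to 33965 in cycling-like cells, against 32593.5 in Sprr1a-led cells. What depth contributes was not tested.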
